A study of Homo sapiens with 6 samples.

Results

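Direct target genes of p53 were compared between BRCA2-deficient and wild-type HCT116 cells. The set was a list of 30 genes given by name, drawn up with earlier results of these data known. A gene was represented by a probe set annotated with its symbol alone, or with an older name of it (C12orf5 for TIGAR), and, where a gene had several, by the one with the highest mean over the 6 arrays. In this way 25 of the 30 genes were measured, of 13139 genes in all. GDF15, AEN and PPM1D lay only on probe sets shared with another gene, and BTG2 and FDXR had no probe set under their symbol, so these 5 were not analysed here.

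HCT116 is a human colon carcinoma line. The wild-type cells were the parental line, and the knockout cells were an isogenic derivative in which each BRCA2 allele had been targeted in turn by homologous recombination. Each genotype had 3 arrays, which the labels call technical replicates of untreated cells in serum-containing medium. The extraction protocol speaks of 3 frozen samples per genotype. The labels do not say whether the RNA came from separate cultures, so the p-values below measure only how far the arrays of a genotype spread, which may be technical. Whether a difference goes with the loss of BRCA2 or with something else in which the targeted cells depart from the parental ones cannot be told apart. In bulk RNA, fewer cells of a type and less RNA per cell cannot be told apart either.

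p53 is a transcription factor that is kept low by the ubiquitin ligase MDM2 and stabilised when DNA is damaged. It binds paired decamers of DNA near its targets, which arrest the cell cycle, promote apoptosis, repair DNA, adjust metabolism, or restrain p53 itself. BRCA2 acts in the repair of broken DNA by homologous recombination, and cells that lack it accumulate unrepaired lesions.

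The deposited values are on a log2 scale and differed in their overall level between arrays. The array median was highest on wild-type array 1 (7.71) and knockout array 2 (7.80) and between 7.36 and 7.48 on the other 4. These are called the bright arrays below. Of the 25 targets, 11 had their highest value on knockout array 2 (24.4% of all probe sets) and 6 on wild-type array 1 (26.3%). After each array was centred on its median, these counts were 6 and 5. Centring moved the median difference of all probe sets from 0.02 to -0.01. The epithelial markers KRT8, KRT18, KRT19, EPCAM, CDH1 and CLDN7 were each above the median of every array, with means over 3 arrays from 9.88 to 13.01. The intestinal markers VIL1 (5.58 and 5.82 in wild type and knockout), CEACAM5 (5.72 and 5.70) and CDX1 (5.94 and 6.33) were low. The rest of the list was LGALS4 (6.47 and 6.78), CDX2 (7.73 and 8.20) and ELF3 (6.70 and 7.86). ELF3 did not overlap between the genotypes and had the largest difference of the list (1.16). Of the 12 epithelial markers 11 were higher in the knockout by sign (51.3% of all probe sets), and 6 did not overlap between the genotypes as deposited (19.7% of all probe sets), or 2 after median centring (20.6%). CDH1, the E-cadherin gene, had means of 10.29 and 11.44 in wild type and knockout. Of 10 measured markers of other cell types 7 were higher by sign. For 2 of the 10 (20%) the genotypes did not overlap, where 19.7% of all probe sets did not. These were COL1A1 (7.53 and 8.64 in wild type and knockout) and GFAP (7.24 and 7.97). The mean over these 10 ran from 5.74 to 6.70 on the wild-type arrays and from 6.25 to 7.09 on the knockout arrays, and the part of either marker list in the results was not tested.

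None of the 25 p53 targets passed an adjusted p of 0.05 in limma over all probe sets, where 0.570% of probe sets did. At an unadjusted p under 0.05 there were 4, all higher in the knockout, or 16% of the set. Over all probe sets 12.2% reached it in either direction and 6.92% as higher. The 4 were PLK2, PLK3, TIGAR and TP53INP1. The genotypes showed no overlap for 6 targets, or 24%, where 19.7% of all probe sets did (12.0% higher and 7.70% lower). Of the 6, 5 were higher in the knockout (the same 4 and GADD45A) and 1, BAX, was lower. By sign alone, 15 were higher and 10 lower, or 60% higher against 51.3% of all probe sets. After median centring 15 were higher (49.6% of all probe sets), and after quantile normalization 16 (50.4%). The median difference was 0.29 on the log2 scale. It was 0.05 without the bright arrays, 0.13 without knockout array 2 alone and 0.18 without wild-type array 2. With the bright arrays left out, 8 targets were higher without overlap (23.2% of all probe sets) and 7 lower (24.1%), on 2 arrays per genotype. The 8 higher were PLK2, PLK3, GADD45A, TP53INP1, TIGAR, TNFRSF10B, TNFRSF10C and SESN2. The 7 lower were BAX, FAS, XPC, DDB2, RRM2B, SESN1 and CCNG1.

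**Figure D1:**
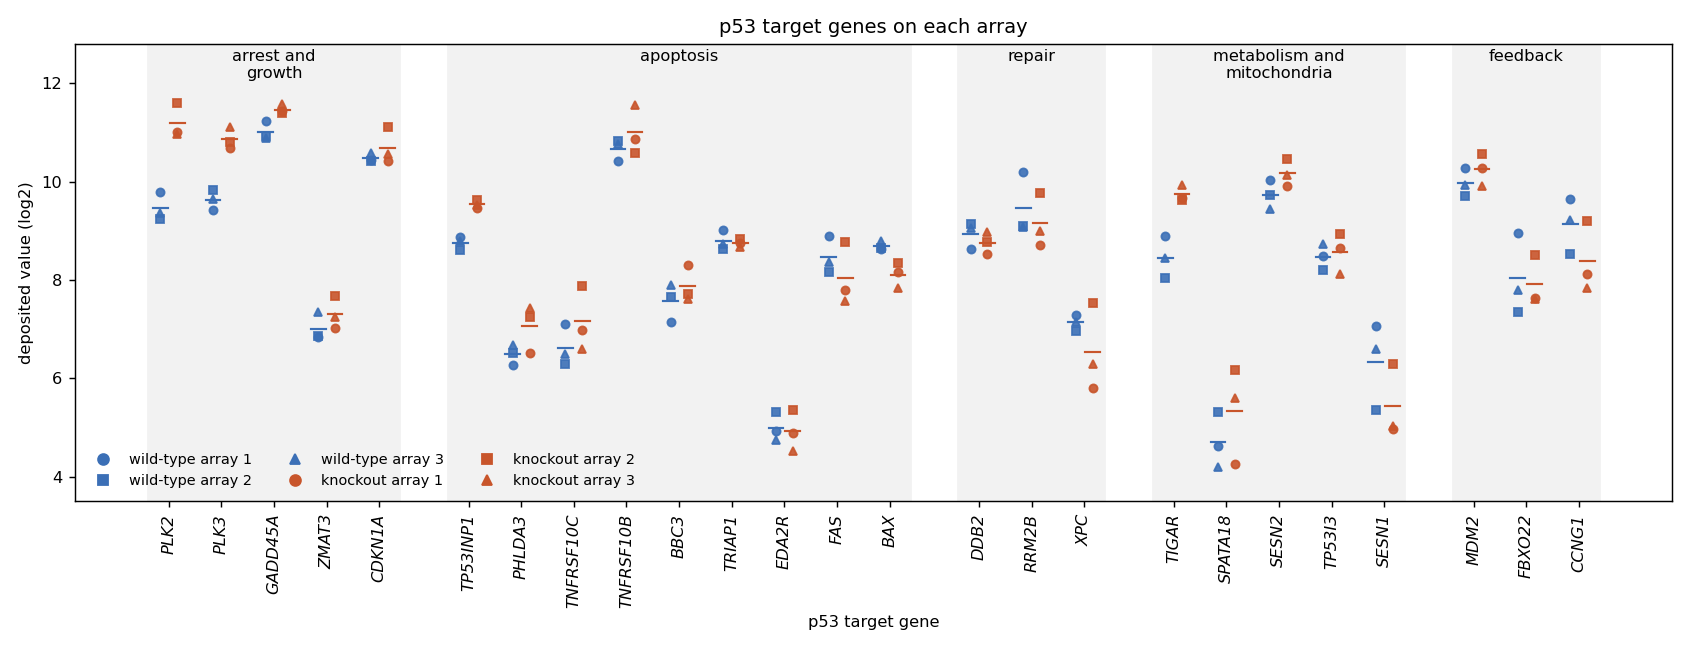
Deposited log2 value (vertical axis) of each measured p53 target (horizontal axis, by function) on the 3 wild-type arrays (blue) and the 3 knockout arrays (orange), with horizontal bars for the means and a marker shape for each replicate number. The knockout arrays lie above the wild-type arrays for PLK2, PLK3, GADD45A, TP53INP1 and TIGAR and below them for BAX, and they overlap for the other 19 genes.

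Among the genes of arrest and growth control, all 5 measured members were higher in the knockout by sign, and the polo-like kinase genes PLK2 and PLK3 had the largest differences. PLK2 encodes a kinase of the centriole cycle and the stress response that p53 induces. Its probe set, 2858023, was at 9.78, 9.24 and 9.37 on wild-type arrays 1, 2 and 3 and at 11.00, 11.60 and 10.97 on knockout arrays 1, 2 and 3. The lowest knockout array thus lay above the highest wild-type array. The means were 9.47 ± 0.28 and 11.19 ± 0.35 (SD, n = 3 arrays each), a difference of 1.72 ± 0.30 (SE of the limma fit), or 3.30-fold. The 95% confidence interval was 1.02 to 2.43, and the adjusted p in limma was 0.0764. The adjusted p in limma was 0.0298 after median centring and 0.0476 after quantile normalization, which call the gene. With the bright arrays left out it was 0.180, and the difference 1.68.

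The region just before the PLK2 start site is shown because this gene had the largest difference of the set and is among the few with a p53 decamer there. Windows from 250 bases before to 50 after a start site were taken from RefSeq (GRCh38.p14), strand of the gene, 5′ to 3′. They were found for 18 of the 25 measured genes. The capitals mark the p53 decamer.
PLK2, chr5:58460037-58460336, minus strand: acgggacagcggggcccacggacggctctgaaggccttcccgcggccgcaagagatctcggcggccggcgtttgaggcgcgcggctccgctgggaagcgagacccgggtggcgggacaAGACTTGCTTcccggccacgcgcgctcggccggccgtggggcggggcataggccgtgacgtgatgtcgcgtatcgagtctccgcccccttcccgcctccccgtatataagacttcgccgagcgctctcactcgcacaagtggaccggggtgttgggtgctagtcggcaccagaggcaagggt
The decamer begins at position -132 from the start site. The p53 decamer motif is its own reverse complement, so a search of 1 strand covers both. At least 1 decamer was found for 4 of the 18 genes, in 4 of their 29 windows, and in 6.63% of all 35116 windows of the same length. The other 3 were SESN1, FAS and DDB2, whose decamers are shown with 20 bases on each side to compare them with that of PLK2.
SESN1, chr6:109009008-109009057, minus strand: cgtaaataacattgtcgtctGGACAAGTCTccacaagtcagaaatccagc
FAS, chr10:88991289-88991338, plus strand: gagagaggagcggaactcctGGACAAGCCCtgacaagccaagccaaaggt
DDB2, chr11:47214959-47215019, plus strand: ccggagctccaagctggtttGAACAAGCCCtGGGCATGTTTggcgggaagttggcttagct
DDB2 had 2 decamers separated by 1 base, and a pair with a gap of at most 13 bases occurred in 10 of the 35116 windows (0.0285%). The differences of these genes were 1.72 for PLK2, -0.91 for SESN1, -0.42 for FAS and -0.18 for DDB2, so genes with a decamer in this window lay on both sides of 0. Sites of p53 outside these windows were not searched.

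PLK3 encodes a related kinase of the stress response and of the G1/S transition. It was at 9.43, 9.83 and 9.64 on the wild-type arrays and at 10.68, 10.80 and 11.11 on the knockout arrays (probe set 2334191). Each knockout array was above each wild-type array. The difference was 1.23 ± 0.26, or 2.34-fold (95% interval 0.61 to 1.85, adjusted p = 0.130 in limma). With the bright arrays left out it was 1.16. The gene was called with a variance trend (adjusted p = 0.00546 in limma) and with array weights (0.0279). These weights lean on wild-type array 3, at 6.96 against 0.40 to 1.04 for the other arrays. The window before PLK3 held no p53 decamer and is printed beside that of its relative. The capitals mark the GC box GGGCGG or its reverse complement CCGCCC, which 45.0% of all windows hold.
PLK3, chr1:44800127-44800426, plus strand: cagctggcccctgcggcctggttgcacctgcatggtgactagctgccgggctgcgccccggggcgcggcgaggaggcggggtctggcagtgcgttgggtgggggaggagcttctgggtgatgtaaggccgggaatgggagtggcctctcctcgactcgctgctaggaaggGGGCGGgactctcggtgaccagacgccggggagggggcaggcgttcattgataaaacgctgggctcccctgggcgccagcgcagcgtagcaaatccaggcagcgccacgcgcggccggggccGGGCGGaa
GADD45A, which encodes a growth arrest protein induced by DNA damage, was at 11.24, 10.93 and 10.88 in wild type and at 11.43, 11.39 and 11.57 in knockout. The arrays did not overlap, but the gap was small. The difference of 0.45 ± 0.25 had an interval that included 0 (-0.13 to 1.03, adjusted p = 0.520 in limma).

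CDKN1A encodes p21, the inhibitor of cyclin-dependent kinases through which p53 arrests the cycle. It was at 10.45, 10.42 and 10.57 on the wild-type arrays and at 10.41, 11.10 and 10.56 on the knockout arrays. Only knockout array 2 stood above the wild-type arrays, and the other knockout arrays lay within or just below their range. The difference was 0.21 ± 0.28 (95% interval -0.45 to 0.87, adjusted p = 0.796 in limma), and with the bright arrays left out it was -0.01. ZMAT3, a gene for an RNA-binding zinc finger protein, differed by 0.30 ± 0.29, and by 0.05 with these arrays left out.

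Apoptosis genes were divided, with 5 of 9 measured members higher and 4 lower (median 0.31). TP53INP1, which encodes a stress protein that promotes apoptosis and autophagy, was at 8.87, 8.60 and 8.79 in wild type and at 9.47, 9.63 and 9.53 in knockout. All 3 knockout arrays lay above the wild-type arrays, and both groups were narrow. The difference was 0.79 ± 0.24, or 1.72-fold (95% interval 0.23 to 1.35, adjusted p = 0.254 in limma), and with the bright arrays left out it was 0.80.

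BAX, which encodes the effector that permeabilises the mitochondrial outer membrane, had the opposite sign. It was at 8.63, 8.65 and 8.79 in wild type and at 8.15, 8.34 and 7.83 in knockout (probe set 3838067). Over the 6 arrays it was the only measured target whose knockout arrays all lay below the wild-type arrays, and with the bright arrays left out it was 1 of 7. The difference was -0.59 ± 0.26 (95% interval -1.19 to 0.02, adjusted p = 0.423 in limma), a level 1.50-fold lower. The BAX window is printed because it stands apart in sequence. It held no p53 decamer but 4 copies of the E-box CACGTG, in capitals, which is its own reverse complement. At least 1 copy occurred in 7.26% of all windows, and as many as 4 in 5 of 35116 (0.0142%).
BAX, chr19:48954625-48954924, plus strand: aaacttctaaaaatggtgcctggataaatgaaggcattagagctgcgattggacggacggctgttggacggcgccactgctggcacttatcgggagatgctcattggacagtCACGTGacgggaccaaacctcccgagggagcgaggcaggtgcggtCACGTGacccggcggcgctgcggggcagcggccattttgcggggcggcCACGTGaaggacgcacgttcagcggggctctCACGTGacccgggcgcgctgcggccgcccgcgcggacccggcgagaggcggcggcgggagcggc

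BBC3 encodes PUMA, a BH3-only protein that acts upstream of BAX. It was at 7.15, 7.65 and 7.90 in wild type and at 8.30, 7.72 and 7.61 in knockout. Knockout array 1 was the highest of the 6 and the others lay within the wild-type range. The difference was 0.31 ± 0.32 (95% interval -0.46 to 1.07), and 0.18 with the bright arrays left out. FAS, the gene of a death receptor, was at -0.42 ± 0.39 and TNFRSF10B, a receptor for the ligand TRAIL, at 0.34 ± 0.33. TNFRSF10C, a decoy receptor for the same ligand, was at 0.53 ± 0.41, and its other probe set gave 0.51. PHLDA3, an inhibitor of the survival kinase AKT, was at 0.58 ± 0.32. TRIAP1, which restrains apoptosis, was at -0.04 ± 0.25. EDA2R, a receptor for ectodysplasin A2, was at -0.07 ± 0.32 and below the lower quartile of all 6 arrays, and its sign turned with quantile normalization (0.0019). Leaving out the bright arrays gave 0.38 for PHLDA3, -0.32 for EDA2R and 0.028 for TRIAP1. In that setting TNFRSF10B (0.43) and TNFRSF10C (0.41) were higher without overlap, and FAS (-0.58) was lower without overlap. The adjusted p in limma of BBC3 and these other 6 genes was between 0.525 and 0.958.

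All 3 repair genes were lower by sign. Their arrays overlapped over all 6 arrays. With the bright arrays left out, on 2 arrays per genotype, all 3 were lower without overlap, as were 24.1% of all probe sets. XPC, the damage sensor of global nucleotide excision repair, was at 7.29, 6.97 and 7.15 in wild type and at 5.80, 7.54 and 6.29 in knockout. Knockout arrays 1 and 3 lay below the wild-type arrays, and knockout array 2 lay above them. The difference was -0.59 ± 0.46 (adjusted p = 0.646 in limma). With the bright arrays left out it was -1.01 (adjusted p = 0.330 in limma). DDB2, which recognises ultraviolet lesions, differed by -0.18 ± 0.27, and by -0.34 with the bright arrays left out. RRM2B, the p53-induced subunit of ribonucleotide reductase, differed by -0.30 ± 0.43, and by -0.23 with them left out.

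Genes of metabolism and mitochondria included TIGAR, a fructose bisphosphatase that restrains glycolysis and lowers oxidative stress. TIGAR was at 8.89, 8.03 and 8.44 in wild type and at 9.67, 9.62 and 9.93 in knockout (probe set 3401756). The lowest knockout array stood above the highest wild-type array. The difference was 1.29 ± 0.30, or 2.44-fold (95% interval 0.57 to 2.00, adjusted p = 0.163 in limma). With the bright arrays left out it was 1.56. The gene was called with a variance trend (adjusted p = 0.0270 in limma) and with array weights (0.0292), which lean on wild-type array 3. The TIGAR window held 3 GC boxes, in capitals, and no p53 decamer, and is printed because its gene had the second largest difference of the set.
TIGAR, chr12:4320963-4321262, plus strand: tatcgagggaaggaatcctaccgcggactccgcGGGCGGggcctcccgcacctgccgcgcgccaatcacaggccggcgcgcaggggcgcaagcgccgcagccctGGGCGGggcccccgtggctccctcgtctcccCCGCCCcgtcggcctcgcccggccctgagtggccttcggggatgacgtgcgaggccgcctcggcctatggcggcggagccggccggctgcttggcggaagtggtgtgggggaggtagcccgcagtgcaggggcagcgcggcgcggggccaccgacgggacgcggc

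TIGAR lies on the short arm of chromosome 12, and most of its measured neighbours were also higher in the knockout. In the order of genes in the RefSeq table (GRCh38.p14), 9 of the 10 nearest measured genes were higher, 8 of them with no overlap between the genotypes, and 0 were lower without overlap. Nearest to it were PARP11 (1.32), CRACR2A (0.65), TSPAN9 (1.30), TEAD4 (1.09) and TULP3 (0.80) on the one side and FGF23 (-0.30), FGF6 (0.74), FERRY3 (0.70), RAD51AP1 (0.59) and DYRK4 (0.60) on the other. Of 20 genes on each side, 33 of 40 were higher (median 0.62), 21 without overlap, where 12.0% of all probe sets were higher without overlap. For each of the other 24 targets, between 0 and 5 of the 10 nearest genes were higher without overlap. Among the 10 neighbours of PLK2 it was 1, the phosphodiesterase gene PDE4D (3.27), and among those of PLK3 it was 1, TMEM53 (0.79). FAS had 5 such neighbours, among them the interferon-induced genes IFIT2, which rose by 1.79 (adjusted p = 0.0387 in limma), IFIT3 (1.52) and IFIT1 (1.27). FAS itself differed by -0.42. The part of chromosomal position in the difference of TIGAR was not tested. The neighbours were looked at after the values had been seen.

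**Figure D2:**
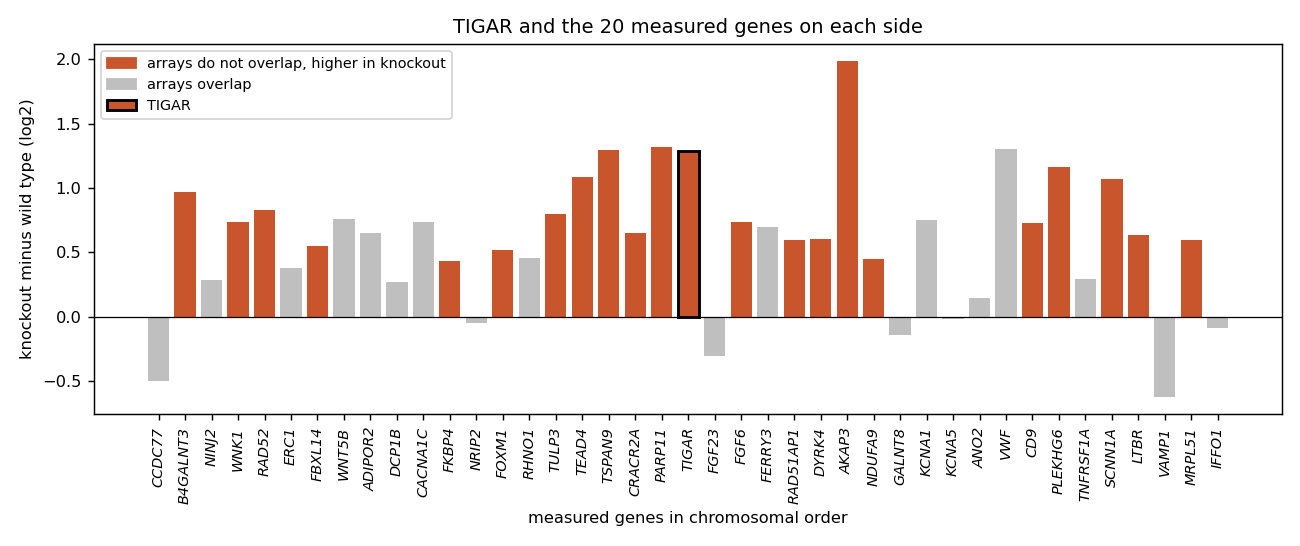
Difference between knockout and wild type (vertical axis, log2) for TIGAR (outlined bar) and the 20 measured genes on each side in chromosomal order (horizontal axis, equal spacing). Orange bars are genes whose knockout arrays all lay above the wild-type arrays, which holds for TIGAR and 21 of the 40 neighbours. Grey bars are genes whose arrays overlapped.

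The sestrin genes, whose products curb the growth kinase mTORC1 and oxidative stress, differed in sign. SESN1 was at 7.06, 5.34 and 6.59 in wild type and at 4.96, 6.29 and 5.03 in knockout, a wide spread in each genotype. Its difference was -0.91 ± 0.55 (adjusted p = 0.557 in limma), and -0.97 without overlap when the bright arrays were left out. SESN2 was at 10.04, 9.73 and 9.44 in wild type and at 9.91, 10.45 and 10.14 in knockout, a difference of 0.43 ± 0.29 (adjusted p = 0.590 in limma). Its arrays overlapped as deposited. They did not overlap after median centring, or with the bright arrays left out (0.44). TP53I3, a quinone oxidoreductase gene, differed by 0.09 ± 0.31, and by -0.084 with the bright arrays left out. SPATA18, which encodes a protein of mitochondrial quality control, differed by 0.63 ± 0.54, and by 0.17 with the bright arrays left out. It lay below the lower quartile on 5 of the 6 arrays.

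Of the feedback genes, all 3 measured overlapped between the genotypes over the 6 arrays. MDM2 was at 10.27, 9.70 and 9.92 in wild type and at 10.28, 10.55 and 9.92 in knockout. Only knockout arrays 1 and 2 were above the wild-type range, the former by a small margin. The difference was 0.29 ± 0.29 (95% interval -0.41 to 0.98, adjusted p = 0.729 in limma). CCNG1, the cyclin G1 gene, whose product promotes MDM2 activity, was at 9.65, 8.53 and 9.22 in wild type and at 8.12, 9.20 and 7.83 in knockout. The difference was -0.75 ± 0.46 (adjusted p = 0.558 in limma), and -0.90 without overlap when the bright arrays were left out. FBXO22, a ubiquitin ligase subunit, differed by -0.12 ± 0.48, and by 0.039 with these arrays left out.

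**Figure D3:**
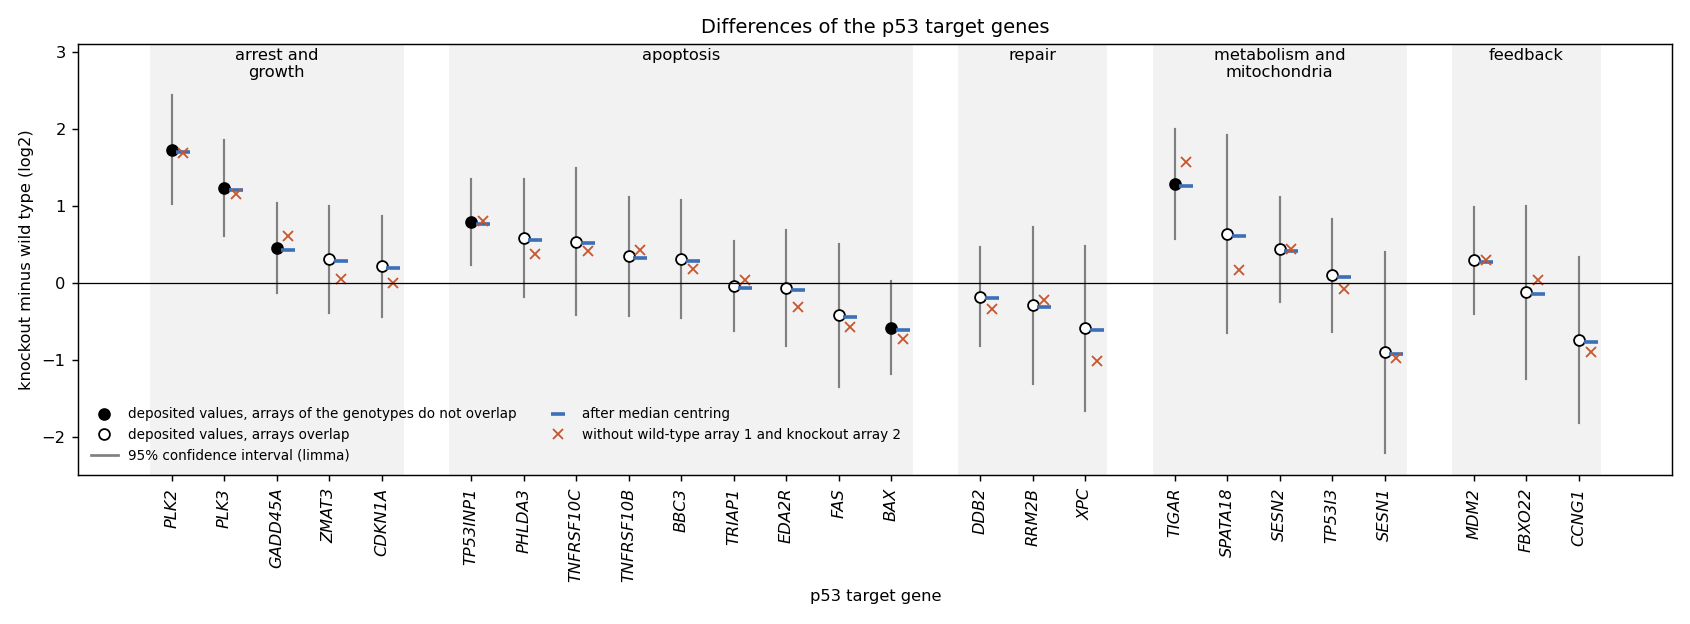
Difference between knockout and wild type (vertical axis, log2) for the 25 measured targets by function (horizontal axis). Circles are the deposited values with 95% limma intervals, filled for the 6 genes whose arrays do not overlap. Blue dashes give the difference after median centring, and orange crosses that with wild-type array 1 and knockout array 2 left out. The intervals of PLK2, PLK3, TP53INP1 and TIGAR lie above 0, and the cross of CDKN1A lies at -0.01.

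The genes around p53 in the pathway were described in the same fit. Of 20 measured genes of the p53 family and its regulators, 11 were higher and 9 lower (median 0.03), and none was called. The median was -0.15 with 8 higher when the bright arrays were left out. It was -0.28 without knockout array 2, -0.13 without wild-type array 2, 0.24 without wild-type array 1, 0.21 without knockout array 3 and 0.11 without knockout array 1, so it has no stable sign. CREBBP, which encodes an acetyltransferase and coactivator of p53, was at 10.27, 10.33 and 10.21 in wild type and at 10.96, 11.22 and 11.19 in knockout. The difference was 0.86 ± 0.24 (adjusted p = 0.221 in limma). CDKN2A, whose ARF product inhibits MDM2 and whose other product p16 inhibits CDK4 and CDK6, was at 10.50, 10.85 and 10.77 in wild type and at 9.97, 10.06 and 10.17 in knockout. The difference was -0.64 ± 0.25 (adjusted p = 0.365 in limma). Neither gene overlapped between the genotypes. The share of the list without overlap was 15%, against 19.7% of all probe sets. TP53BP2, a p53-binding cofactor of apoptosis, was at 0.53 ± 0.33, DAXX, a chaperone of histone H3.3 that also binds MDM2, at -0.54 ± 0.37, and MDM4, the partner of MDM2, at -0.34 ± 0.33.

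A longer list of 79 measured p53 targets outside the 30 held 44 higher and 35 lower genes. By sign 55.7% were thus higher, against 51.3% of all probe sets. Their median difference was 0.12, and 0.089 to 0.24 with 1 array left out, the highest without wild-type array 1. Of these 79 genes, 2 were called, both higher in the knockout, as were 0.416% of all probe sets. ALOX5, the gene of 5-lipoxygenase, was at 5.83, 5.89 and 6.13 in wild type and at 8.85, 9.01 and 8.90 in knockout. It rose by 2.97 ± 0.24, or 7.82-fold (adjusted p = 0.00493 in limma). SULF2, which encodes an extracellular sulfatase of heparan sulfate, was at 7.79, 7.67 and 7.76 in wild type and at 9.40, 9.48 and 9.49 in knockout. It rose by 1.71 ± 0.23, or 3.28-fold (adjusted p = 0.0333 in limma). The call of SULF2 was lost with any 1 array left out (adjusted p 0.0822 to 0.209 in limma), and both calls were lost with the bright arrays left out (0.0850 for ALOX5 and 0.173 for SULF2).

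Next in this list by p were the lipid transporter gene ABCA12 and ATF3, whose product is a transcription factor of the stress response. ABCA12 differed by 3.51 ± 0.56 (adjusted p = 0.0590 in limma), or by 3.06 with values under 4 set to 4, since its wild-type arrays were at 4.86, 2.64 and 4.02. ATF3 differed by 1.56 ± 0.28 (adjusted p = 0.0843 in limma). The genotypes did not overlap for 23 higher and 5 lower genes of the list, or 35.4%, against 19.7% of all probe sets. The apoptosis gene PMAIP1, which encodes NOXA, was among the higher ones, at 0.84 ± 0.27 (adjusted p = 0.283 in limma). The lowest difference was that of the potassium channel gene KCNN4 (-1.21, adjusted p = 0.111 in limma). Both were picked with their values known.

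Genes that p21 represses through the DREAM complex, which binds cell cycle promoters in arrested cells, were lower for 17 of 22 measured members (median -0.48), and none was called. By sign 22.7% of the list were higher, against 51.3% of all probe sets. With 1 array left out, the median ran from -0.76 (without wild-type array 2) to -0.33. The mitotic phosphatase gene CDC25C was at 8.34, 7.61 and 8.02 in wild type and at 6.51, 7.02 and 6.30 in knockout. The difference was -1.38 ± 0.32 (adjusted p = 0.159 in limma). CCNA2, the cyclin A2 gene, differed by -0.74 ± 0.30, the spindle midzone gene PRC1 by -0.68 ± 0.28 and the kinetochore gene CENPF by -0.90 ± 0.41. The genotypes did not overlap for 5 lower and 2 higher genes as deposited, and for 10 lower and 1 higher after median centring. The first is 31.8% of the list, where 19.7% of all probe sets did not overlap (7.70% lower and 12.0% higher), and after centring 20.6% of all probe sets did not. FOXM1, a transcription factor of mitotic genes, was the one higher in both cases, at 0.52 ± 0.25. It lies among the 20 measured genes on one side of TIGAR. Values of CDKN1A, given above, did not separate the genotypes. The part of p21 in the differences of this list was not tested.

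**Figure D4:**
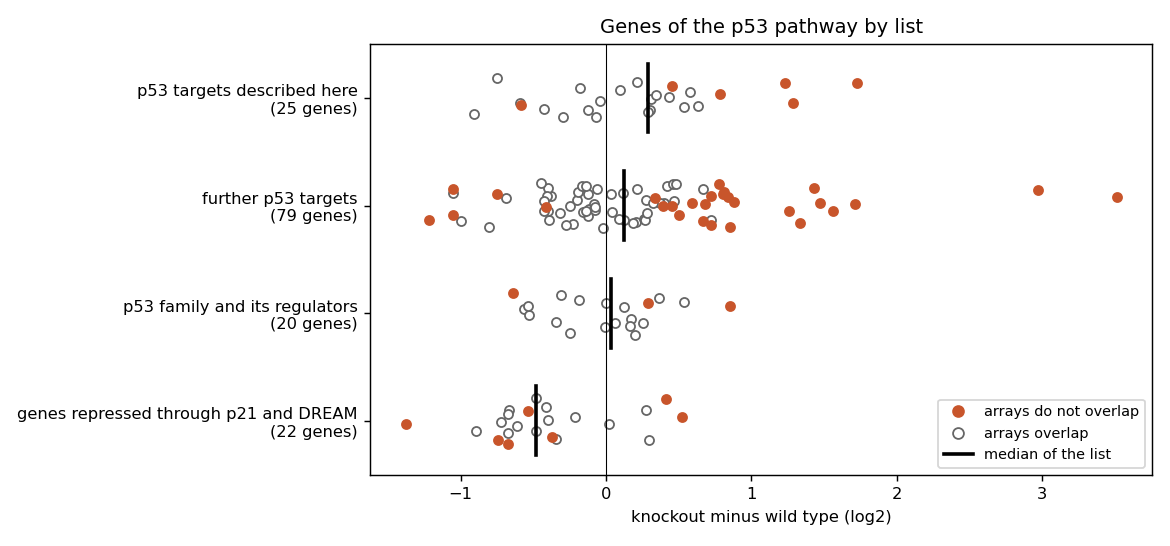
Difference between knockout and wild type (horizontal axis, log2) for each measured gene of 4 lists of the p53 pathway (vertical axis, jittered), with filled points where the arrays of the genotypes do not overlap and a bar at the median. The medians were 0.29 for the 25 targets, 0.12 for the 79 further targets, 0.03 for the regulators and -0.48 for the genes repressed through p21.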

How the data were processed

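Total RNA depleted of ribosomal RNA was hybridised to Affymetrix whole-transcript arrays, per the labels' protocols. The authors deposited 1 log2 value per probe set and array. RMA, R 2.11.1 and hg18 appear in the submitters' processing notes without a role, and the steps run with them are not given in these sources. The scale was taken from the range of values (highest per array 13.97 to 14.14, lowest -10.27 to -2.64, with 5 to 83 values below 0 per array). The array medians differ, so the deposited probe set values do not share 1 distribution. Which normalization was run before the values were summarised is not known. Gene symbols came from GEO's platform annotation. Of 19458 probe sets, 13301 had 1 symbol, 2044 several and 4113 none, and symbols were updated through gene identifiers in a RefSeq table (13280 found).

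Values were used as deposited. The genotypes were compared with limma 3.58.1 (R 4.3.3, lmFit and eBayes, genotype as the single factor) over all 19458 probe sets with Benjamini-Hochberg adjustment. Probe sets with an adjusted p under 0.05 were called. A positive difference means higher in the knockout, and its SE is that of the fit. Precision is limited by 3 arrays per genotype. The members and lists were chosen with earlier results of these data known. Of the members, those with an unadjusted p under 0.05 or arrays without overlap are given on every array, with CDKN1A, MDM2, BBC3 and BAX by rule and XPC, SESN1, SESN2 and CCNG1 after their values were seen. Of each other list the called genes and the 4 of smallest p are named, with MDM4. Others were picked from their values. The fit was first tested on simulated data. Alternatives covered normalization, dim probe sets, a floor, the variance model, array weights, the replicate number and arrays left out.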

Additional observations from a re-analysis of the deposited data

How the results depend on the processing

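The direction of PLK2, PLK3, GADD45A, TP53INP1, TIGAR and BAX was kept after median centring, with or without the bright arrays, and after quantile normalization. The other alternatives could not turn it, since the arrays of these genes do not overlap as deposited. The number of p53 targets called, 0 as deposited, was 1 (PLK2) after median centring, after quantile normalization and without the dimmest 30% of probe sets, and 3 (PLK2, PLK3 and TIGAR) with a variance trend and with array weights. It was 0 with any 1 array left out. The array weights were 6.96 for wild-type array 3 and 0.40 to 1.04 for the other arrays, so results with them lean on that array. The number at an unadjusted p under 0.05 was 10 with array weights and 7 with median centring and both bright arrays left out, an alternative chosen after seeing the data, and 4 to 8 with 1 array left out, where the 8 came without knockout array 2. Calls over all probe sets, 111 as deposited, were 175 after median centring, 174 after quantile normalization, 184 without the dimmest 30%, 169 with values under 4 set to 4, 396 with a variance trend, 778 with array weights, 7 without wild-type array 1 and knockout array 2, 6 when these were left out after centring, and 24 to 63 with 1 array left out. The cause was not tested.

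Signs turned for some of the targets under some alternatives. Without both bright arrays (wild-type array 1 and knockout array 2) the difference was -0.011 for CDKN1A, 0.028 for TRIAP1, -0.084 for TP53I3 and 0.039 for FBXO22, and with median centring as well it was -0.0043, 0.035, -0.077 and 0.046. With array weights it was -0.030 for ZMAT3, 0.0074 for EDA2R and -0.21 for TP53I3, and with quantile normalization 0.0019 for EDA2R. With 1 array left out, the difference ran from -0.29 to 0.13 for EDA2R, -0.12 to 0.072 for TRIAP1, -0.60 to 0.077 for RRM2B, -0.087 to 0.32 for TP53I3 and -0.47 to 0.33 for FBXO22.

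With the replicate number as a block (replicate block), 3 probe sets and 0 targets were called. The numbers share nothing in the labels, and the correlations of deviations between same-numbered arrays were -0.24, -0.43 and 0.06, so the arrays were not treated as pairs.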
